A study of Mus musculus with 19 samples.

Results

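The 10 genes described here, Pck1, G6pc1, Fbp1, Ppargc1a, Foxo1, Tat, Sds, Insr, Irs1 and Irs2, cover the making of glucose by the liver and the insulin signal that restrains it. They were chosen by symbol, not by their values, from the 55836 genes of a liver RNA-seq count table, and all 10 were among the 13597 genes that passed the filter on low counts and were tested. The table held 19 livers of wild-type male C57BL/6 mice that were 8 weeks old at the start, 1 library per mouse. For 8 weeks they were fed a control diet (CD, labelled Chow Diet) or a MASH diet (MD), which is rich in fat, fructose and cholesterol and gives fatty liver disease. Over the same weeks they were gavaged daily with vehicle (Veh, Tween 20 in water) or with polyethylene microplastic particles (PE) at 2 mg per mouse, so that all mice shared the gavage. There were 4 mice in CD + Veh and 5 in each of the groups CD + PE, MD + Veh and MD + PE. Levels are given as CPM, the counts of a gene scaled to library size with TMM factors. A gene was called where the edgeR quasi-likelihood test gave a Benjamini-Hochberg adjusted p below 0.05 over all tested genes and the log2 fold change was at least 0.38 in size.

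Between meals the liver keeps blood glucose up by building it from lactate, glycerol and amino acids. Glucagon and glucocorticoids raise the genes of this pathway through CREB, the coactivator PGC-1alpha (Ppargc1a), the glucocorticoid receptor and FOXO1. After a meal insulin binds its receptor (Insr), the receptor substrates IRS1 and IRS2 pass the signal to the kinase AKT, and AKT drives FOXO1 out of the nucleus, so that the transcription of Pck1 and G6pc1 falls. The levels of these messages therefore move with feeding, hormones and the hour of the day, and none of the sources used here gives a fasting period or the hour at which the livers were taken.

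The libraries held 10398820 to 15456729 counts, and on both diets the PE libraries were the shallower ones, without overlap. A score of clock genes (mean log2 CPM of 5 genes of the morning arm minus that of 8 genes of the evening arm) lay at -4.19 to -2.84 in CD + Veh, and at -2.76 to 0.961 with PE on that diet. It was -1.92 to 0.251 in MD + Veh and -1.76 to 0.194 in MD + PE, so that CD + Veh stood apart from the other 3 groups. Ribosomal pseudogenes Rps6-ps4 and Rps12-ps3 were present in the libraries numbered up to 45, which are all of CD + Veh and replicates 1 to 3 of MD + Veh, and at 0 in the others. Within CD this division and PE cannot be told apart. Summed hepatocyte markers (11 genes) came to 90870 to 123062 CPM on the control diet and 70760 to 90821 on the MASH diet, while the kidney and pancreas lists reached at most 0.894 and 2.98 CPM. Of the kidney markers Slc12a1 and Slc22a6 were at 0 in every library, and of the pancreas markers Ins1, Ins2, Gcg and Amy2a1. Muscle markers (12 genes) reached 3385 CPM in MD + Veh replicate 1 and 473 in CD + PE replicate 1, and stayed at or below 211 in the other libraries. Bile duct markers reached 1149 CPM and intestinal markers 324 in MD + PE replicate 2, against at most 69.7 and 131 CPM in the other groups. Kupffer cell markers reached 717 CPM in CD + PE replicate 2, against a median of 125 in that group. Between groups, Kupffer cell markers (8 genes) did not overlap between CD + Veh, at 99.1 to 181 CPM, and MD + Veh, at 211 to 311, with 0 called by edgeR or DESeq2 (1 at an unadjusted p below 0.05). Stellate cell markers (8 genes) were at 174 to 226 CPM in CD + Veh and 230 to 479 in MD + Veh, with 8 of 8 higher. Of these edgeR called 2, a share of 25% against 10.4% of all tested genes. White adipose markers (8 genes) were at 1354 to 2449 CPM in CD + Veh and 2743 to 4800 in CD + PE. Nearly all of that was Car3, while Adipoq, Lep, Plin1, Retn and Adig averaged at most 0.9754 CPM in any group. Adrenal cortex markers (6 genes, mostly Cyp17a1) were at 27.9 to 73.8 CPM in CD + Veh, 10.5 to 41.9 in CD + PE, 8.46 to 14.2 in MD + Veh and 3.04 to 6.74 in MD + PE, with Cyp11b1 and Cyp11b2 at 0 in every library. The part of these cell types in the results was not tested.

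Of the 10 genes 7 had a promoter window in the RefSeq table used (build GRCm38.p6, 250 bases before the start of transcription to 50 after it), and G6pc1, Sds and Insr had none. The windows of Pck1 and Tat are shown because these 2 genes varied together most closely within groups, and that of Fbp1 because it is the gene called between PE and vehicle. Sequences are 5′ to 3′ on the strand of the gene, and the capitals mark TGACG read on the reverse strand, the core of the cAMP response element that CREB binds.
Pck1, chr2:173152823-173153122, + strand: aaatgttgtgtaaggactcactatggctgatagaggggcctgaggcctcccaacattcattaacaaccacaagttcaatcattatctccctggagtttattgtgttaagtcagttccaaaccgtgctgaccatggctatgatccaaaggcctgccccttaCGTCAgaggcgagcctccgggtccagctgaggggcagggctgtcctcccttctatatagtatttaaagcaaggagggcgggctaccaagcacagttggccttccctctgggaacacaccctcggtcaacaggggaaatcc
Tat, chr8:109990186-109990485, + strand: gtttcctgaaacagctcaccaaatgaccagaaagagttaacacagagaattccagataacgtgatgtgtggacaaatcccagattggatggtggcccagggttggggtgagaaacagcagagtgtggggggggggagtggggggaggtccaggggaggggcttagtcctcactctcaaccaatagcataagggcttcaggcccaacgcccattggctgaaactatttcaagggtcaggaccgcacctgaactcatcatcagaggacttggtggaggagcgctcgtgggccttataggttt
Fbp1, chr13:62888233-62888532, - strand: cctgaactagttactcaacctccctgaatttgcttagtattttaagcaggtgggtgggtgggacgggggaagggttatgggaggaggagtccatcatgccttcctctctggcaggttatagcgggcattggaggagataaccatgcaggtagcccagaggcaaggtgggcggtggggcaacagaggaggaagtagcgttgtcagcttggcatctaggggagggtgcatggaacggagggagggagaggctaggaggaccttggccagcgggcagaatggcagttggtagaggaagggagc
The core in Pck1 starts at position -90 from the start of transcription. TGACG was found at -49 in Ppargc1a and at -118 in Irs1 too, on the reverse strand, and it lies in 20.8% of the 32851 windows of this length. The insulin response sequence TGTTTTG lay at -111 and -32 in Irs1 and at -37 in Irs2, on the strand of the gene, and lies in 6.28% of windows. The E-box CACGTG was found at -115 in Irs1, where it overlaps both the core TGACG and the first TGTTTTG, and at -44 in Irs2, and it lies in 7.15% of windows. The forkhead letters GTAAACA, the full element TGACGTCA and the D-box TTATGTAA were in none of the 7 windows, against 3.65%, 1.79% and 0.938% of all windows. Both strands were searched, and the windows of Fbp1, Foxo1 and Tat held none of the letters.

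Per kilobase of the canonical transcript, the enzymes stood far above the signalling genes. In CD + Veh the mean level was 877 CPM per kb for Tat, 634 for Pck1, 491 for Fbp1, 195 for G6pc1 and 149 for Sds. The receptor gene Insr followed at 12.4 CPM per kb, and Foxo1, Irs1, Irs2 and Ppargc1a lay at 4.49, 2.87, 2.61 and 2.55. The widest range within a group was that of Pck1, 8.76-fold from the lowest to the highest CD + PE mouse.

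**Figure D1:**
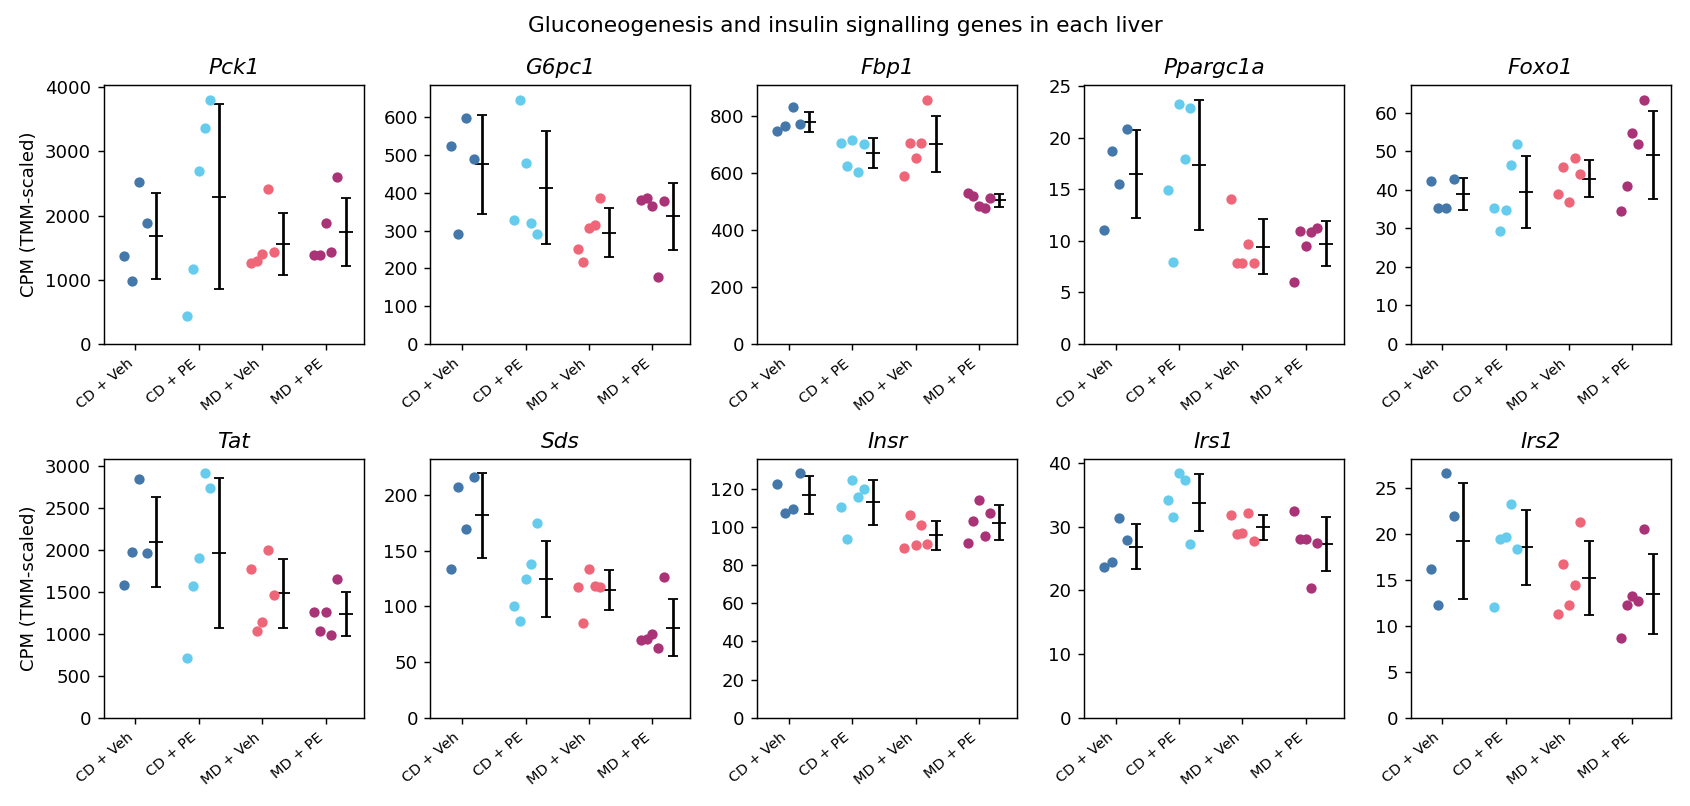
TMM-scaled CPM (vertical axes, from 0) of the 10 genes in each of the 19 livers, by group (horizontal axes); dots are mice, and the bar beside them is the mean ± SD (n = 4 in CD + Veh, 5 in the other groups). The 5 MD + PE mice lie at 478 to 531 CPM of Fbp1, below the other 14 mice, while Pck1 and Tat overlap in all groups.

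Few of the 10 genes passed the test, and those that did fell. PE on the control diet gave 0 calls of 10 by edgeR and 0 by DESeq2, with an unadjusted p below 0.05 for Fbp1, Sds and Irs1 (background 2.92% of all tested genes called). The MASH diet with vehicle gave 1 call of 10 by edgeR, Sds, a share close to the background of 10.4%. DESeq2, which called 1589 genes in all there, gave 3, Sds, G6pc1 and Ppargc1a. PE on the MASH diet gave 1 call, Fbp1, by both tools (background 1.08%). The MASH diet among PE mice also gave 1 call by edgeR, Fbp1 again (background 4.61%). DESeq2, which called 793 genes in all there, gave 3, Fbp1, Sds and Ppargc1a. In the test of whether PE acted differently on the 2 diets, edgeR and DESeq2 called 0 of the 10, with an unadjusted p below 0.05 for Irs1 and Fbp1 (background 0.00735%). The median log2 fold change of the 10 genes was -0.052, -0.32, -0.048 and -0.40 in the same order of comparisons, and that of all tested genes was 0.0064, -0.0042, -0.012 and -0.019. These comparisons share groups, MD + PE being part of 2 of them and CD + Veh of 2, so their values are not independent.

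**Figure D2:**
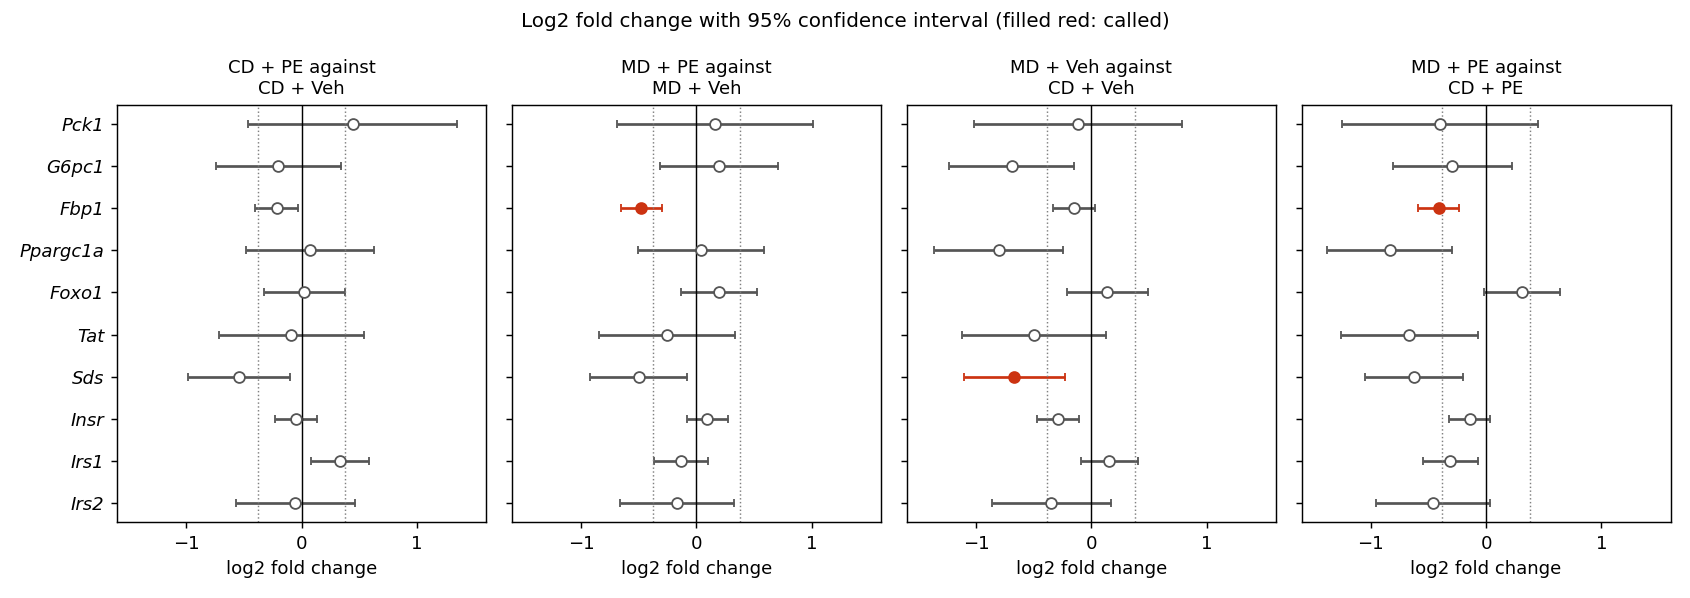
Log2 fold change of each gene (horizontal axes) with its 95% confidence interval in the 4 comparisons, by the edgeR fit over 19 livers; filled red points were called and dotted lines mark a log2 fold change of 0.38 in size. Fbp1 was called in both comparisons that hold MD + PE, at -0.48 and -0.41, and Sds in MD + Veh against CD + Veh, at -0.67.

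Fbp1 (chr13:63012567-63036263 on GRCm39, - strand) encodes fructose-1,6-bisphosphatase, which takes the step of gluconeogenesis that opposes phosphofructokinase. It was at 749.8, 766, 832 and 775 CPM in the CD + Veh mice and at 708, 625, 716, 605 and 704 in CD + PE. On the MASH diet it was at 592, 706, 655, 706 and 859 CPM with vehicle and at 531, 519.6, 485, 478 and 513 with PE. Every MD + PE mouse lay below every mouse of the other groups, and CD + PE and CD + Veh did not overlap either. Group means were 781 ± 35.7 CPM (SD, n = 4) with vehicle and 672 ± 52.4 (n = 5) with PE on the control diet, and 704 ± 98.9 and 505 ± 22.6 (n = 5 each) on the MASH diet. In MD + PE against MD + Veh Fbp1 fell by 28.2%, on the log2 scale -0.48 (SE 0.084, adjusted p = 0.00702). Against CD + PE it fell by 24.8%, or -0.41 (SE 0.084, adjusted p = 0.00476). The difference of CD + PE from CD + Veh was smaller and was not called, at -0.22 (95% confidence interval -0.40 to -0.032, adjusted p = 0.192). Nor was that of MD + Veh from CD + Veh, at -0.15 (adjusted p = 0.278). The 2 PE effects differed by -0.26 with an unadjusted p of 0.0456 in the edgeR test, which did not survive adjustment (adjusted p = 0.557). The call between MD + PE and MD + Veh held in all 19 fits that left out 1 library. Against only the 2 MD + Veh libraries numbered past 45 the value was -0.62 (adjusted p = 0.0140). In a fit of these 2 groups alone it was -0.46 and was not called (adjusted p = 0.0546). Of the 11 hepatocyte markers edgeR and DESeq2 called 0 between MD + PE and MD + Veh (4 with an unadjusted p below 0.05, median -0.092). Between MD + PE and CD + PE edgeR called 5 of the 11 down (45.5% against 4.61% of all genes, median -0.38). Of 8 endothelial markers all were higher in MD + PE than in MD + Veh (median 0.31), edgeR calling 0 and DESeq2 3, with 3 at an unadjusted p below 0.05. In whole liver, fewer hepatocytes and less of a message in each hepatocyte cannot be told apart.

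G6pc1 (chr11:101258369-101268729, + strand) encodes the catalytic subunit of glucose-6-phosphatase, which releases free glucose. The 4 CD + Veh mice were at 523, 292, 597 and 489 CPM and the CD + PE mice at 328, 646, 479, 319 and 292. On the MASH diet the levels were 250.03, 217, 307, 314 and 385 CPM with vehicle and 380.0, 387, 364, 178 and 378 with PE. Of the CD + Veh mice 3 lay above every MD + Veh mouse, and 1, at 292 CPM, lay among them. The difference of MD + Veh from CD + Veh was -0.69 (SE 0.26, adjusted p = 0.0819) by edgeR, not called, and DESeq2 gave an adjusted p of 0.0494. Without CD + Veh replicate 2, the low mouse, edgeR gave -0.87 (adjusted p = 0.0376). Against vehicle, PE stood at -0.20 (95% confidence interval -0.74 to 0.34, adjusted p = 0.760) on the control diet and at 0.20 (95% confidence interval -0.32 to 0.71, adjusted p = 0.766) on the MASH diet. The second value was 0.37 without MD + PE replicate 4, whose 178 CPM was the lowest of all 19 mice.

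Pck1 (chr2:172994744-173001066, + strand) encodes cytosolic phosphoenolpyruvate carboxykinase, the enzyme that commits oxaloacetate to gluconeogenesis, and is the textbook fasting message of the liver. It was at 1365, 979.9, 2521 and 1881 CPM in CD + Veh and at 434, 1168, 2688, 3358 and 3804 in CD + PE. The MASH diet mice were at 1256, 1294, 1395, 2417 and 1436 with vehicle and 1389, 1382, 1885, 1438 and 2603 with PE. CD + PE held both the lowest and the 3 highest mice of the study, and in every other group the mice stayed between 979.9 and 2603 CPM. None of the comparisons passed, and the intervals were wide. PE stood at 0.44 (95% confidence interval -0.47 to 1.35, adjusted p = 0.668) on the control diet and at 0.16 (95% confidence interval -0.69 to 1.01, adjusted p = 0.903) on the MASH diet. The MASH diet stood at -0.11 (95% confidence interval -1.01 to 0.79, adjusted p = 0.891) with vehicle and at -0.40 (95% confidence interval -1.25 to 0.45, adjusted p = 0.623) with PE. Without CD + PE replicate 1, the lowest mouse, the first value was 0.72 (adjusted p = 0.278). That library held 473 CPM of muscle markers, and the part of this in its Pck1 level was not tested.

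The enzymes that feed amino acid carbon into the pathway gave the second call. Sds (chr5:120614585-120621997, + strand) encodes serine dehydratase, which turns serine into pyruvate. Its level was 134, 207, 169 and 216 CPM in CD + Veh and 99.96, 86.6, 125, 138 and 174 in CD + PE. With the MASH diet it was 118, 84.8, 134, 118 and 118 with vehicle and 69.9, 71.0, 75.0, 62.2 and 126 with PE. The lowest CD + Veh mouse, at 133.8 CPM, stood just above the highest MD + Veh mouse, at 133.6. In MD + PE 4 of the 5 mice lay below every other mouse of the study. Means were 181 ± 37.8 CPM (SD, n = 4) with vehicle and 125 ± 34.3 (n = 5) with PE on the control diet, and 114 ± 17.9 and 80.8 ± 25.7 (n = 5 each) on the MASH diet. MD + Veh differed from CD + Veh by -0.67 (SE 0.21, adjusted p = 0.0408), a fall by 37.0% and the only call. PE stood at -0.54 (SE 0.21, adjusted p = 0.171) on the control diet and at -0.50 (SE 0.20, adjusted p = 0.225) on the MASH diet, and the MASH diet with PE at -0.63 (SE 0.20, adjusted p = 0.0686). The 2 PE differences were 0.041 (95% confidence interval -0.57 to 0.65, adjusted p = 0.984) apart. Of the 11 hepatocyte markers 3 were called down in the same comparison (27.3% against 10.4% of all genes), 9 had an unadjusted p below 0.05 and the median was -0.34. Their sums were 98508 to 115233 CPM in CD + Veh and 73372 to 90821 in MD + Veh, without overlap, and their part in the Sds call was not tested. The call for the diet was near the threshold: it was lost without CD + Veh replicate 2, 3 or 4 or MD + Veh replicate 1, 2, 4 or 5, with an adjusted p of 0.0593 to 0.135. Its values with the clock score are given with that score.

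Tat (chr8:110717063-110726435, + strand) encodes tyrosine aminotransferase, a classical glucocorticoid target. The CD + Veh mice were at 1578, 1969, 2845 and 1961 CPM and the CD + PE mice at 713, 1565, 1899, 2910.4 and 2731. With the MASH diet Tat was at 1769.8, 1038, 1141, 1994 and 1456 under vehicle and 1264, 1038, 1258, 985 and 1646 under PE. The groups overlapped in every comparison, CD + PE replicate 1 being the lowest mouse of all. No difference was called. The largest was -0.67 (SE 0.28, adjusted p = 0.173) for MD + PE against CD + PE, and without CD + PE replicate 1 it was -0.88 (adjusted p = 0.0262) and was called. The MASH diet with vehicle gave -0.50 (adjusted p = 0.287), and PE gave -0.089 on the control diet and -0.26 on the MASH diet.

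Of the 2 regulators, Ppargc1a (chr5:51611592-51725068, - strand), the coactivator that fasting raises in liver, was lower on the MASH diet without a call by edgeR. On the control diet the levels were 11.01, 18.7, 15.5 and 20.8 CPM with vehicle and 14.9, 7.89, 23.2, 17.9 and 22.8 with PE. On the MASH diet they were 14.01, 7.87, 7.84, 9.67 and 7.80 with vehicle and 6.01, 10.9, 9.48, 10.8 and 11.2 with PE. In MD + Veh 4 mice lay below every CD + Veh mouse, and replicate 1, at 14.01 CPM, lay within their range. Among the PE mice 4 of CD + PE lay above every MD + PE mouse, and CD + PE replicate 2, at 7.89 CPM, lay among them. The diet differences were -0.80 (SE 0.27, adjusted p = 0.0506) with vehicle and -0.84 (SE 0.26, adjusted p = 0.0565) with PE by edgeR, and DESeq2 called both (adjusted p = 0.0298 and 0.0281). Muscle, which makes this message too, showed in MD + Veh replicate 1 with 3385 CPM of its markers. The part of muscle in its Ppargc1a level was not tested. Without that library edgeR called the first difference, at -0.98 (adjusted p = 0.0221). Without CD + PE replicate 2, which held the most Kupffer cell markers and the highest clock score, the second was called at -1.02 (adjusted p = 0.00589). Against vehicle, PE stood at 0.071 (95% confidence interval -0.48 to 0.63, adjusted p = 0.938) on the control diet and 0.038 (95% confidence interval -0.51 to 0.58, adjusted p = 0.967) on the MASH diet.

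Foxo1 (chr3:52175757-52260642, + strand), the forkhead factor that insulin holds out of the nucleus, was the 1 gene of the 10 that was higher in MD + PE than in CD + PE. Levels on the control diet were 42.2, 35.2, 35.2 and 42.8 CPM with vehicle and 35.4, 29.2, 34.8, 46.4 and 51.97 with PE. Those on the MASH diet were 38.98, 45.9, 36.8, 48.3 and 44.2 CPM with vehicle and 34.4, 41.01, 54.8, 51.8 and 63.4 with PE. All groups overlapped, and the difference of MD + PE from CD + PE was 0.31 (95% confidence interval -0.021 to 0.65, adjusted p = 0.264), not called. The level of this message does not show where the protein lies in the cell.

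Insr (chr8:3172061-3329647, - strand), the insulin receptor, was lower in MD + Veh than in CD + Veh but by less than the limit for a call. It was at 122, 107, 109 and 128 CPM in CD + Veh and 89.2, 106, 90.7, 101 and 90.8 in MD + Veh, groups that did not overlap. The difference was -0.29 (SE 0.088, adjusted p = 0.0350), or -18.1%, and its size is below 0.38. The PE mice were at 111, 93.8, 124, 116 and 120.0 CPM on the control diet and 91.6, 103, 114, 95.4 and 107 on the MASH diet. These groups overlapped and differed by -0.14 (SE 0.083, adjusted p = 0.337). PE against vehicle was -0.049 (95% confidence interval -0.23 to 0.14, adjusted p = 0.842) on the control diet and 0.10 (95% confidence interval -0.078 to 0.27, adjusted p = 0.635) on the MASH diet.

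Irs1 (chr1:82210822-82269338, - strand) and Irs2 (chr8:11034681-11059499, - strand) encode the docking proteins of the receptor. Irs1 was at 23.6, 24.4, 31.3 and 28.0 CPM with vehicle and 34.2, 31.6, 38.4, 37.4 and 27.4 with PE on the control diet. It was at 31.9, 28.9, 29.0, 32.1 and 27.7 with vehicle and 32.4, 28.0, 28.1, 20.5 and 27.5 with PE on the MASH diet. Of the CD + PE mice 4 lay above every CD + Veh mouse, and replicate 5, at 27.4 CPM, lay among them. PE was at 0.33 (SE 0.12, adjusted p = 0.136) on the control diet and -0.13 (SE 0.11, adjusted p = 0.623) on the MASH diet, neither called. The difference between these 2 PE effects was -0.47 (SE 0.16, adjusted p = 0.402) by the edgeR test. Its unadjusted p, 0.0107, was the lowest of the 10 genes in that test. Irs2, the substrate that falls in liver when insulin is high, was at 16.2, 12.2, 26.6 and 21.96 CPM with vehicle and 12.0, 19.5, 19.6, 23.2 and 18.4 with PE on the control diet. With the MASH diet Irs2 was at 11.3, 16.7, 12.2, 14.4 and 21.2 CPM under vehicle and 8.69, 12.2, 13.2, 12.7 and 20.6 under PE. Groups overlapped throughout and no difference was called, the largest being -0.46 (95% confidence interval -0.96 to 0.037, adjusted p = 0.271) for MD + PE against CD + PE.

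Other genes of glucose synthesis were called in larger share than the 10 for PE on the control diet and the diet with vehicle. For PE on the MASH diet and the diet with PE the shares were close, 12.5% beside 1 of the 10 each. Of 24 tested enzymes and carriers of gluconeogenesis, PE on the control diet raised 1 and lowered 5, a share of 25% called against 2.92% of all genes, with a median log2 fold change of -0.22. Here and in the lists below, PE on the control diet cannot be told apart from the division of library numbers. The counts of the lists were not refitted with that division. The enzyme of the step next to G6pc1, Gpi1 (glucose-6-phosphate isomerase), fell from 354 ± 62.3 CPM (SD, n = 4) to 229.8 ± 28.1 (n = 5), on the log2 scale -0.62 (SE 0.13, adjusted p = 0.00873). The carrier Slc37a4, which brings glucose 6-phosphate to the enzyme made by G6pc1, fell too, at -0.55 (SE 0.13, adjusted p = 0.0251), and the glycolytic and gluconeogenic enolase Eno1 was at -0.48 (SE 0.079, adjusted p = 0.00249). Gpd1, which takes up glycerol 3-phosphate, rose by 0.58 (SE 0.11, adjusted p = 0.00695). PE on the MASH diet raised 0 and lowered 3 of the 24 (12.5% called against 1.08%, median -0.18). These were the citrate carrier Slc25a1 at -0.62 (SE 0.079, adjusted p = 0.000611), Gapdh at -0.54 (SE 0.075, adjusted p = 0.00100) and Eno1 at -0.41 (SE 0.075, adjusted p = 0.00857). Most of these enzymes, Eno1, Gapdh and Gpi1 among them, run in both glycolysis and gluconeogenesis. The MASH diet with vehicle raised 3 and lowered 6 (37.5% called against 10.4%, median -0.083). Gpd1 rose there by 0.96 (SE 0.11, adjusted p = 1.58e-05) and the dicarboxylate carrier Slc25a10 by 0.85 (SE 0.12, adjusted p = 0.000103), while Gpi1 was at -0.70 and Slc37a4 at -0.64 (adjusted p = 0.000958 and 0.00265). Among PE mice the diet raised 1 and lowered 2 (12.5% against 4.61%), Gpd1 at 0.47 (SE 0.10, adjusted p = 0.00951), Got1, the cytosolic aspartate aminotransferase, at -1.004 (SE 0.25, adjusted p = 0.0211) and Slc25a1 at -0.83 (SE 0.080, adjusted p = 1.64e-06). Fbp2, the muscle form of the enzyme made by Fbp1, was the 1 gene of this list that was not tested.

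Genes of amino acid breakdown were called in both directions with the diet under vehicle and in 1 direction, down, with PE on the MASH diet. Of 26 tested genes PE raised 2 and lowered 2 on the control diet (15.4% called against 2.92% of all genes), among them Oat, ornithine aminotransferase, at 0.99 (SE 0.19, adjusted p = 0.00714), and Prodh, proline dehydrogenase, at -0.65 (SE 0.17, adjusted p = 0.0348). Agxt, the alanine-glyoxylate aminotransferase of peroxisomes, was at 0.47 (SE 0.11, adjusted p = 0.0241) and Gls2, the liver glutaminase, at -0.42 (SE 0.12, adjusted p = 0.0496). On the MASH diet PE lowered 3 and raised 0 (11.5% against 1.08%), Gls2 at -0.79 (SE 0.11, adjusted p = 0.00114), Haao of tryptophan breakdown at -0.50 (SE 0.088, adjusted p = 0.00702) and Hgd of tyrosine breakdown at -0.46 (SE 0.082, adjusted p = 0.00773). The MASH diet with vehicle raised 5 and lowered 3 (30.8% against 10.4%), with Oat at 1.505 (SE 0.20, adjusted p = 4.77e-05), Gldc, the glycine decarboxylase, at 0.95 (SE 0.15, adjusted p = 0.000258), Cth, cystathionine gamma-lyase, at 0.54 (SE 0.17, adjusted p = 0.0408) and Gls2 at -0.56 (SE 0.12, adjusted p = 0.00307). With PE it lowered 4 (15.4% against 4.61%), Gls2 at -0.93 (SE 0.11, adjusted p = 2.61e-05), Agxt at -0.75 (SE 0.11, adjusted p = 0.000172), Haao at -0.51 (SE 0.088, adjusted p = 0.00129) and Sdsl, a relative of Sds, at -0.49 (SE 0.12, adjusted p = 0.0207). The median of the list was 0.018, 0.018, -0.17 and -0.13 for PE on the control diet, the diet with vehicle, PE on the MASH diet and the diet with PE.

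**Figure D3:**
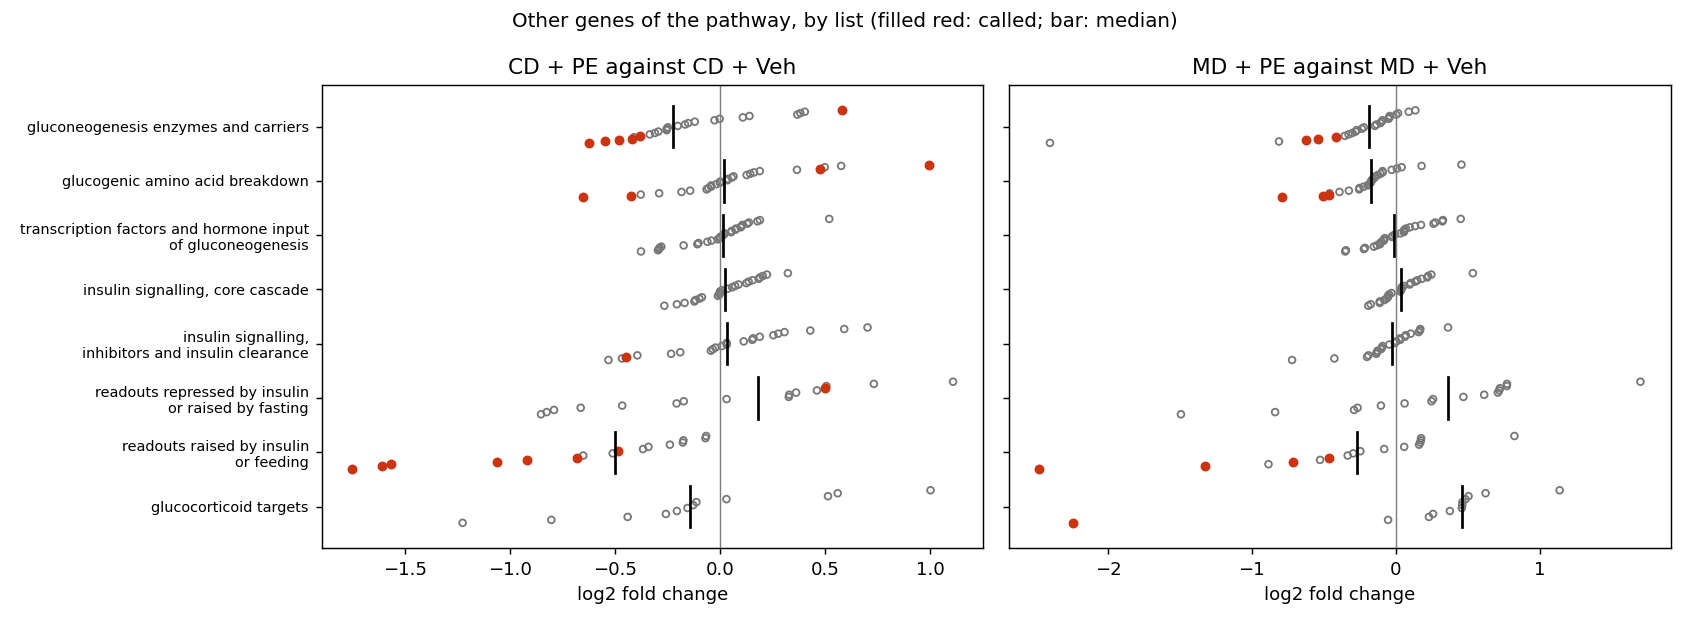
Log2 fold change (horizontal axes, whose ranges differ) of the tested genes of 8 lists (rows) after PE on the control diet (left) and on the MASH diet (right); each circle is a gene, filled red where called, and the bar is the median of the list. The median of the genes raised by insulin or feeding lies at -0.50 and -0.27, and that of the core of insulin signalling at 0.023 and 0.038.

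Regulators and genes of insulin signalling gave few calls. Of 28 genes of the transcription factors and hormone input of gluconeogenesis, kinases among them, edgeR called 0 for PE on the control diet (5 with an unadjusted p below 0.05, 1 called by DESeq2). On the MASH diet it called 0 too (7 and 1). Cebpa, a factor that maintains hepatocyte genes, was at -0.29 (SE 0.090, adjusted p = 0.0756) and -0.35 (SE 0.085, adjusted p = 0.0446) in these comparisons, neither called. Esrra, the nuclear receptor that PGC-1alpha coactivates, was at -0.38 (SE 0.10, adjusted p = 0.0475) on the control diet, just short of 0.38 in size, and Prkaca, a catalytic subunit of protein kinase A, was at -0.35 (SE 0.081, adjusted p = 0.0384) on the MASH diet. The diet with vehicle lowered 3, a share of 10.7% beside 10.4% of all genes, Esrra at -0.50 (SE 0.10, adjusted p = 0.00243), Atf4 at -0.49 (SE 0.16, adjusted p = 0.0437) and Sirt1 at -0.43 (SE 0.14, adjusted p = 0.0417). With PE it lowered 1 (3.57% beside 4.61%), Cebpa at -0.40 (SE 0.085, adjusted p = 0.00737). Of 24 genes of the core of the insulin cascade edgeR and DESeq2 called 0 in any comparison, while 5, 6, 4 and 3 had an unadjusted p below 0.05 for PE on the control diet, the diet with vehicle, PE on the MASH diet and the diet with PE. Rictor and Rptor, the defining subunits of mTORC2 and mTORC1, passed the adjusted p and not the limit on size, Rictor at 0.32 (SE 0.086, adjusted p = 0.0419) for PE on the control diet and Rptor at 0.33 (SE 0.063, adjusted p = 0.00136) for the diet with vehicle, and so did the phosphodiesterase Pde3b at 0.33 (SE 0.090, adjusted p = 0.0288) for the diet with PE. The kinase gene Akt2 was at -0.21 (SE 0.065, adjusted p = 0.0842) and -0.19 (SE 0.061, adjusted p = 0.122) with PE on the 2 diets. Of 22 inhibitors of insulin signalling and genes of insulin clearance, 1 fell with PE on the control diet, Prkce, at -0.45 (SE 0.12, adjusted p = 0.0454), and 1 with the diet under vehicle, the AKT phosphatase Phlpp2, at -0.72 (SE 0.21, adjusted p = 0.0277). Each is a share of 4.55%, beside 2.92% and 10.4% of all genes. For PE on the MASH diet and for the diet with PE edgeR and DESeq2 called 0 of the 22, with 1 and 4 at an unadjusted p below 0.05. Ptpn2 was at -0.44 (SE 0.14, adjusted p = 0.0676) and Enpp1 at -0.32 (SE 0.11, adjusted p = 0.0936) in the latter, and Ppp2r1a at -0.20 (SE 0.064, adjusted p = 0.124) in the former.

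Genes read as signs of the fed state that were called with PE or with the diet all fell, and genes raised by fasting were called mainly for the diet under vehicle. Of 16 genes raised by insulin or feeding PE lowered 7 on the control diet and raised 0 (43.8% called against 2.92%), all 16 lying below 0, and lowered 4 on the MASH diet (25% against 1.08%). On the MASH diet 10 of the 16 lay below 0 and 6 above it. Acacb, the acetyl-CoA carboxylase of mitochondria, went from 396 ± 118 CPM (SD, n = 4) with vehicle to 134 ± 37.4 (n = 5) with PE on the control diet, and from 95.3 ± 36.5 to 17.0 ± 5.92 (n = 5 each) on the MASH diet. Elovl6, the fatty acid elongase, fell and was at -1.75 (SE 0.25, adjusted p = 0.00107) with PE on the control diet, and Acaca, the cytosolic carboxylase, at -1.61 (SE 0.18, adjusted p = 0.000159). Scd1, stearoyl-CoA desaturase, was at -1.06 (SE 0.20, adjusted p = 0.00526) and -1.32 (SE 0.19, adjusted p = 0.00121) with PE on the 2 diets, and Khk, ketohexokinase, at -0.46 (SE 0.11, adjusted p = 0.0407) on the MASH diet. The diet lowered 7 with vehicle (43.8% against 10.4%) and 5 with PE (31.2% against 4.61%), Pklr, the liver pyruvate kinase, being at -1.33 (SE 0.19, adjusted p = 0.000108) and -0.94 (SE 0.18, adjusted p = 0.00297). With vehicle 12 of the 16 lay below 0 and 4 above it (median -0.52), and with PE 10 and 6 (median -0.16). Of the 7 called with PE on the control diet, Acaca, Elovl6 and Scd1 work in the making of fatty acids, Acacb makes the malonyl-CoA that restrains their oxidation, Tkfc and Khk act on fructose and Pklr in glycolysis. Of 16 genes raised by fasting or held down by insulin PE raised 1 on the control diet (6.25% against 2.92%), and edgeR and DESeq2 called 0 on the MASH diet (4 with an unadjusted p below 0.05, the lowest for Sesn3 at -0.29 (SE 0.078, adjusted p = 0.0649) and Txnip at 0.77 (SE 0.27, adjusted p = 0.156)). The diet with vehicle raised 2 and lowered 3 (31.2% against 10.4%), with Pdk4 at 1.98 (SE 0.61, adjusted p = 0.0366), Ppp1r3g at -3.19 (SE 0.77, adjusted p = 0.00848), Lpin1 at -1.87 (SE 0.60, adjusted p = 0.0442) and Txnip at -1.51 (SE 0.28, adjusted p = 0.00126), and with PE edgeR and DESeq2 called 0 (3 with an unadjusted p below 0.05). Igfbp1, a target of FOXO1 and a common sign of low insulin action, was at 0.33, -0.58, 0.72 and -0.18 in the 4 comparisons (adjusted p = 0.733, 0.344, 0.359 and 0.826). Of 12 glucocorticoid targets edgeR and DESeq2 called 0 for PE on the control diet (1 with an unadjusted p below 0.05), and 2, 1 and 2 were called for the diet with vehicle, PE on the MASH diet and the diet with PE (16.7%, 8.33% and 16.7% against 10.4%, 1.08% and 4.61% of all genes). These were Cdkn1a at 2.13 (SE 0.64, adjusted p = 0.0320) in the first, Lcn2 at 2.38 (SE 0.67, adjusted p = 0.0376) in the last and, in all 3, Sult1e1 at 4.71, -2.24 and 2.72, whose group means never passed 2.01 CPM. Of the 12 targets 8, 2 and 5 lay below 0 in these comparisons, and 4, 10 and 7 above it. The medians were -0.24, 0.46 and 0.12, so that the calls ran against the median in the first and the second.

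Markers of position in the lobule were called in all 4 comparisons, and clock genes in the 2 that hold CD + Veh. Gluconeogenesis runs mainly in periportal hepatocytes, and of 13 periportal markers 2, 3, 3 and 5 fell and 0 rose for PE on the control diet, the diet with vehicle, PE on the MASH diet and the diet with PE. These are shares of 15.4%, 23.1%, 23.1% and 38.5%, against 2.92%, 10.4%, 1.08% and 4.61% of all genes. Ass1, argininosuccinate synthase of the urea cycle, went from 2508 ± 276 CPM in MD + Veh to 1296 ± 189.9 in MD + PE (SD, n = 5 each), and Gls2 from 223 ± 21.97 to 129 ± 16.2. In that comparison 11 of the 13 periportal markers lay below 0 and 2 above it. For PE on the control diet 7 lay below 0 and 6 above it (median -0.040). For the diet 9 lay below 0 and 4 above it with vehicle, and 10 and 3 with PE. The lists share genes, so their counts are not independent. Gls2 and the pericentral marker Oat are also counted under amino acid breakdown, and the periportal markers Alb and Cps1 among the hepatocyte markers. Of 13 pericentral markers 2, 4 and 1 rose for PE on the control diet, the diet with vehicle and the diet with PE (15.4%, 30.8% and 7.69%), and edgeR and DESeq2 called 0 for PE on the MASH diet (4 with an unadjusted p below 0.05). The clock genes gave 2 and 5 calls up of 5 in the morning arm (40% and 100% against 2.92% and 10.4% of all genes) and 0 and 6 calls down of 8 in the evening arm (0% and 75%) for PE on the control diet and for the diet with vehicle (4 evening genes with an unadjusted p below 0.05 and 0 by DESeq2 in the former). In the other 2 comparisons edgeR and DESeq2 called 0 clock genes, with 1 evening gene at an unadjusted p below 0.05 for the diet with PE and none for PE on the MASH diet. The part of lobule position and of the clock in the levels of the 10 genes was not tested, beyond a fit with the clock score as a covariate. In that fit Sds differed between MD + Veh and CD + Veh by -0.026 (adjusted p = 0.974) and Ppargc1a by 0.012. Foxo1 differed there by 0.74 (adjusted p = 0.0198), and the fall of Fbp1 from MD + Veh to MD + PE was -0.48 (adjusted p = 0.00705). The score is itself measured on these livers and does not overlap between CD + Veh and the rest.

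Across libraries the 10 genes did not vary as 1 block. Over log2 CPM in 19 libraries, which share the 4 groups, Pearson's r of Pck1 with Tat was 0.757, and 0.886 after group means were taken out. Pck1 with Irs2 gave 0.558 (0.635 within groups), Ppargc1a with Sds 0.665 (0.611) and Foxo1 with Insr 0.222 (0.683). Fbp1 with Sds gave 0.698 over all libraries and 0.080 within groups, and Pck1 with G6pc1 0.128 and 0.121. Pck1, G6pc1 and Fbp1, the 3 enzymes most often named together in gluconeogenesis, had r no higher than 0.331 with each other over the 19 libraries. With the clock score Sds gave -0.761 (-0.641 within groups), Ppargc1a -0.688 (-0.634) and Insr -0.679 (-0.525), while Foxo1 gave -0.228 and -0.785 within groups. With Per1, a clock gene that glucocorticoids and glucagon also raise, Pck1 gave 0.752 (0.842 within groups) and Tat 0.723 (0.767), and with Igfbp1 Pck1 gave 0.537 (0.551). These coefficients describe the libraries, which share diet, PE and library number, and carry no test.

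**Figure D4:**
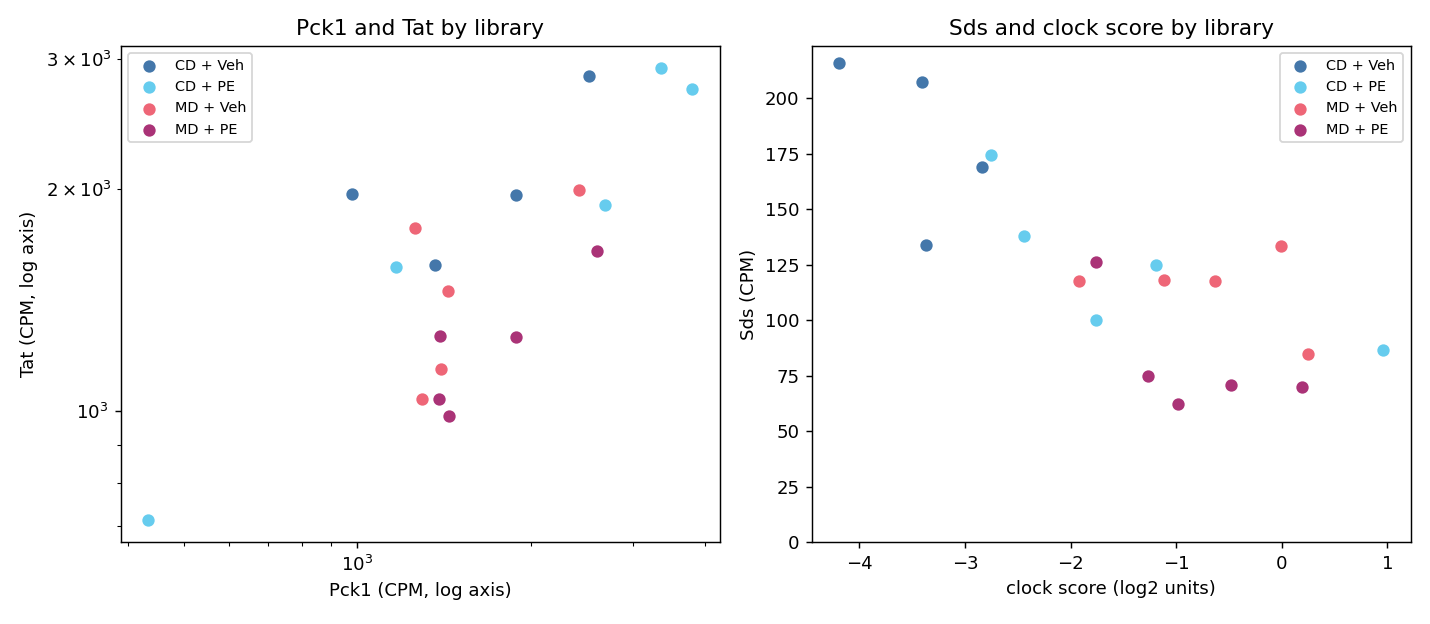
Left, Tat against Pck1 (CPM, both axes logarithmic) and right, Sds (CPM) against the clock score (log2 units), each dot being 1 of the 19 livers, coloured by group. Pck1 and Tat were high in the same livers (r = 0.757), with CD + PE replicate 1 lowest in both, and Sds was highest where the score was lowest (r = -0.761).

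Among 9392 tested genes of at least 5 CPM on average, the genes whose log2 levels over the 19 libraries were most like those of each of the 10 were as follows. In the brackets, r over all libraries comes first and r after group means were taken out second. Pck1 was followed most closely by Pim3 (0.915, 0.940), Klf15 (0.886, 0.905) and Nudc (0.862, 0.872), and Tat by Scarf1 (0.818, 0.754), Slc35e2 (0.809, 0.857) and Mrpl38 (0.809, 0.753). Fbp1 was nearest to Adipor2 (0.920, 0.742), Haao (0.904, 0.492) and Apoc3 (0.901, 0.612), and G6pc1 to Tle4 (0.765, 0.748), Serpina11 (0.746, 0.630) and Mrpl13 (0.741, 0.698). For Sds they were Ebp (0.899, 0.723), Mtarc1 (0.896, 0.754) and Cyth1 (0.891, 0.788), for Ppargc1a Pcbp2 (0.913, 0.840), Dcaf6 (0.855, 0.723) and Pcsk4 (0.851, 0.725), and for Foxo1 Klhl21 (0.809, 0.858), Enpp2 (0.802, 0.784) and Ivns1abp (0.786, 0.865). Insr was most like Ralgapa2 (0.882, 0.890), Slc2a2 (0.875, 0.754) and Npc1 (0.862, 0.734), Irs1 like Nags (0.795, 0.772), Nsun5 (0.788, 0.787) and Ciao3 (0.758, 0.719), and Irs2 like Tbc1d8 (0.826, 0.867), Rnaseh2a (0.794, 0.754) and Zfp691 (0.761, 0.706). Slc2a2, the glucose transporter of hepatocytes, fell with the MASH diet under vehicle, at -0.51 (SE 0.11, adjusted p = 0.00395).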

How the data were processed

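Liver poly(A) RNA of 19 mice was sequenced. Per the paper's methods the authors trimmed reads with fastp (0.23.4), quantified transcripts with Salmon (1.10.3, selective alignment, sequence bias correction) against the GENCODE transcriptome of GRCm39, a release not given in the sources used here, and summed them to genes with tximport, giving the deposited estimated counts as whole numbers. From these counts, edgeR 4.0.16 (R 4.3.3) kept 13597 of 55836 genes with filterByExpr, scaled libraries by TMM and fitted 1 coefficient per group over all 19 libraries. Its quasi-likelihood F test, two-sided and adjusted over all tested genes, gave the adjusted p-values, log2 fold changes, SE and 95% intervals, and 1 CPM stood for 9.96 to 16.1 counts. Beside it 13 other settings, DESeq2 1.42.0 among them, were run, as was leaving out each library. Each library is 1 mouse, and in the 36 pairs of libraries of 1 group at most 1.85% of genes had equal counts. In data simulated on the 13597 genes, 200 of them were changed by a log2 fold of 1.5. The fit recovered 83.5% of these for PE on the control diet and 87% for PE on the MASH diet. For the test of whether PE acted differently on the 2 diets it recovered 69%. The largest change among the 10 genes was -0.84, for Ppargc1a with the diet among PE mice. These shares therefore do not give the power for changes as small as those of the 10 genes. The 10 genes, the lists of pathway genes and markers, the clock score and the tests were chosen with earlier results of these data known. Genes were named from the lists as up to 4 called genes with the largest log2 fold change per comparison, or the 2 with the smallest p where none was called. Igfbp1, Slc2a2, Per1, Tkfc and Ass1 stand outside this rule and were picked with their values known, and some genes of the lists are not reported here by name. Gene positions are from GENCODE vM39 on GRCm39, promoters from RefSeq on GRCm38.p6.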

Additional observations from a re-analysis of the deposited data

Results flagged for a closer look

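In 3 of the 40 sets of values of 1 gene in 1 group, 1 mouse lay far from the rest by Dixon's test; chance alone flags about 1 in 20 such sets. Pck1 was at 2417 CPM in MD + Veh replicate 4, against 1436 in the next mouse, a gap of 0.845 of the whole range of the group. Without it Pck1 differed between MD + PE and MD + Veh by 0.37 in place of 0.16, and neither was called. G6pc1 was at 178 CPM in MD + PE replicate 4, against 364 in the next mouse (gap 0.893), and without it G6pc1 in MD + PE against MD + Veh was at 0.37 (adjusted p = 0.494). Sds was at 126 CPM in MD + PE replicate 5, against 75.0 in the next mouse (gap 0.799). Without that mouse Sds was called in MD + PE against CD + PE at -0.84 (adjusted p = 0.0104), and stood at -0.72 (adjusted p = 0.0648) against MD + Veh.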

How the results depend on the processing

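Of 560 log2 fold changes of the 10 genes under 13 other settings 523 kept their direction and their side of the threshold, and of 950 with 1 library left out 895 did. Fbp1 kept its call in MD + PE against MD + Veh in all settings but the fit of those groups alone, and against CD + PE in all.

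Genes of the 10 called (main counts 0, 1, 1, 1 and 0) became 1 with the replicate block in CD + PE against CD + Veh, where Sds was at -0.68 (adjusted p = 0.0358), and 2 in MD + PE against CD + PE, with Sds added. In MD + Veh against CD + Veh they were 3 with DESeq2 and with only the groups compared, 2 with the stricter filter, without the fold limit and after thinning, and 0 with robust dispersion (Sds adjusted p = 0.0531), with the library division as a covariate (0.0686) and with MD + Veh limited to libraries up to number 45 (0.0851). With the clock score 1 was called, Foxo1 in place of Sds. In MD + PE against MD + Veh the fit of only these groups called 0, and in MD + PE against CD + PE DESeq2 called 3 and the clock score 2. All genes called in the 5 tests moved by over 1.5 times to 37 (division) in the first, 414 (clock score) in the second, 299 (DESeq2), 73 (groups only), 33 (division) and 18 (MD + Veh past number 45) in the third, 964 (no fold limit) in the fourth, and 81 (DESeq2), 41 (replicate block), 54 (division) and 0 (clock score) in the interaction. The sources used here do not say whether the replicate numbers pair mice. Deviations of same-numbered libraries correlated with a median of 0.029 (-0.245 to 0.41), over 0.1 in 6 of 27 pairs. The replicate block changed no other call of the 10 genes. Leaving out 1 library gave 215 to 426, 1019 to 1652, 56 to 243, 505 to 987 and 0 to 3 genes, 0 to 3 of the 10 genes in MD + Veh against CD + Veh and 1 to 3 in MD + PE against CD + PE.

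Some uncalled values changed sign. In CD + PE against CD + Veh Foxo1 was -0.073 with the replicate block, Pck1 -0.11 and Foxo1 -0.17 with the division, and Tat 0.24, Insr 0.087 and Irs2 0.17 with the clock score. In MD + Veh against CD + Veh the clock score gave Pck1 0.76 and Ppargc1a 0.012. In MD + PE against MD + Veh Pck1 was -0.15 and G6pc1 -0.053 with the division, -0.14 and -0.047 with MD + Veh past number 45, and Ppargc1a -0.037 with the clock score. In the interaction Tat was 0.000483 and Irs2 0.060 with the division, Foxo1 -0.30, Sds -0.46 and Insr -0.0074 with the clock score, and Ppargc1a 0.075 after thinning. With 1 library left out the ranges that crossed 0 were, in CD + PE against CD + Veh, -0.073 to 0.26 for Ppargc1a, -0.095 to 0.11 for Foxo1, -0.26 to 0.14 for Tat, -0.088 to 0.012 for Insr and -0.22 to 0.14 for Irs2; -0.33 to 0.15 for Pck1 in MD + Veh against CD + Veh; -0.033 to 0.37 for Pck1 and -0.023 to 0.24 for Ppargc1a in MD + PE against MD + Veh; and -0.22 to 0.15 for Ppargc1a, -0.39 to 0.0069 for Tat, -0.18 to 0.19 for Sds and -0.32 to 0.049 for Irs2 in the interaction. The cause was not tested. The fits limited by library number were chosen after seeing the data. Ppargc1a, Irs1, Irs2 and Foxo1 lay at 6.01 to 63.4 CPM. Their SE in CD + PE against CD + Veh was 0.12 to 0.27, against 0.088 to 0.43 for the enzymes, and the part of depth in it was not tested.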
